A study of Mus musculus and blank sample with 768 samples.

Results

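The CSF1 receptor axis was followed through 4 genes of the 51734 gene symbols in the deposited tables: Csf1r (the receptor), its ligands Csf1 and Il34, and Spi1, which encodes the transcription factor PU.1. They were chosen by name, and all 4 were found in both tables of read counts. CSF1R is a receptor tyrosine kinase on macrophages and their precursors, and it carries signals for their survival and growth. CSF1 is made by many stromal and endothelial cells, as a secreted protein or as a membrane protein that proteases can release, whereas IL-34 is known above all from skin and brain. PU.1 is an ETS-family factor needed for the myeloid and B cell lineages and a known activator of Csf1r transcription in macrophages.

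The study sorted single mouse cells into wells and sequenced full-length cDNA made with a modified SMART-seq2 protocol, in which reads and not molecules are counted. The groups were tumour endothelial cells that carried GFP (CD45-, CD31+, GFP+), tumour endothelial cells without GFP, and tumour macrophages (CD45+, CD31-, GFP-). From lymph nodes (LN) came GFP+, GFPlow and GFP- endothelial cells (CD45-, CD31+), and from blood came GFP+ cells labelled CD45-, CD31+. In the labels GFP+ endothelial cells are of the Csf1r lineage and GFPlow cells are potentially so. The labels used here give no mouse line, tumour type, promoter behind GFP, age or animal. Each gate was therefore treated as 1 sample, no difference was tested, and every interval covers counting error only.

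Of 768 wells, 592 held a cell that passed a filter on depth (50000 reads or more in genes), genes read (1000 or more) and mitochondrial reads (25% or less). These were 84 and 85 tumour GFP+ cells on plates KM3 and KM4, 84 tumour GFP- cells (plate KM2) and 81 tumour macrophages (plate KM1). The lymph node gave 98 GFP+ cells (43, 33 and 22 in pools A, B and C), 79 GFPlow cells (15, 14 and 50 in pools B, C and D) and 74 GFP- cells (40, 26 and 8 in pools A, B and C), and 7 cells of 27 blood wells passed. Median reads per cell were highest in LN GFPlow cells, at 1238819, and lowest in LN GFP- cells, at 609243.5. Plate and gate cannot be told apart in the tumour, since each plate held 1 gate. The endothelial markers Cdh5 and Kdr were at 0 reads in all 7 blood cells, against 73.6 and 479 CPM (reads of a gene scaled to 1000000 reads in genes) in LN GFP+ cells. Pecam1, the CD31 gene, was at 134.2 CPM in the blood cells, with reads in 3 of 7 and 653 reads in 1 of them. Ptprc, the CD45 gene, was at 260.2 CPM with reads in 5. All 8 pan-endothelial markers summed to 136.3 CPM, against 2907 CPM in LN GFP+ cells, so by RNA the blood cells largely went against their label. Of these cells 5 had reads of Cd79a, a B cell gene, and the other two had reads of Ccr2, a chemokine receptor gene of monocytes.

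Csf1 (chromosome 3, 107741048 to 107760469, minus strand, GRCm38) had the highest level of the 4 genes per kilobase of exon in every endothelial gate, and the 250 bases before its start are printed for that reason, from RefSeq on GRCm38.p6 (chr3:107760470-107760719, minus strand). Capitals mark matches to the letters GGAAAGTCC, a form of the NF-kappaB site, and GGGCGG, the core of the SP1 site.
Csf1 promoter: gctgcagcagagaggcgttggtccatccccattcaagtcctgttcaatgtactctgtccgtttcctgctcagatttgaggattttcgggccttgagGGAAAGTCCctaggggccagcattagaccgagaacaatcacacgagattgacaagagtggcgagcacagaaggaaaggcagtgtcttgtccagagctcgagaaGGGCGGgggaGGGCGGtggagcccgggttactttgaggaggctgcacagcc
The letters of the first motif, searched on both strands, were in 0.283% of 32851 promoters of the same length. They were chosen with this sequence in view. The second motif occurs at 51 and 41 bases before the start and was in 32.7% of promoters. The letters GAGGAA, a form of the PU.1 site, and TATAAA were not in this window, and were in 23.3% and 12.4% of promoters. Other and shorter forms of the PU.1 site were not searched for. No readout in these data measured binding at these letters.

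Csf1 RNA was mainly a lymph node signal. LN GFP+ cells held 703 CPM (698 to 709) of their summed reads, LN GFPlow cells 668 CPM (663 to 673) and LN GFP- cells 184.9 CPM (181.01 to 188.8). Tumour GFP+ cells held 6.64 CPM (6.24 to 7.06), tumour GFP- cells 26.2 CPM (25.1 to 27.4), macrophages 2.59 CPM (2.25 to 2.97) and the blood cells 0.607 CPM from 3 reads in 1 cell. The order was thus LN GFP+, LN GFPlow, LN GFP-, tumour GFP-, tumour GFP+, macrophages and blood.

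LN GFP+ and LN GFPlow, the neighbours at the top of that order, did not differ beyond the spread of their pools. Csf1 averaged 724 ± 183.2 CPM over the 3 pools of LN GFP+ cells, 805.6 ± 217.8 CPM over those of GFPlow cells and 169.6 ± 137.9 CPM over those of GFP- cells (SD, n = 3 pools each). By pool, Csf1 was at 610, 935 and 626 CPM in LN GFP+ cells of pools A, B and C and at 947, 915 and 555 CPM in GFPlow cells of pools B, C and D. In LN GFP- cells it was at 70.4, 327.2 and 111.3 CPM in pools A, B and C. The pools of GFP+ and GFPlow cells thus overlapped each other, and none overlapped the GFP- pools.

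**Figure D1:**
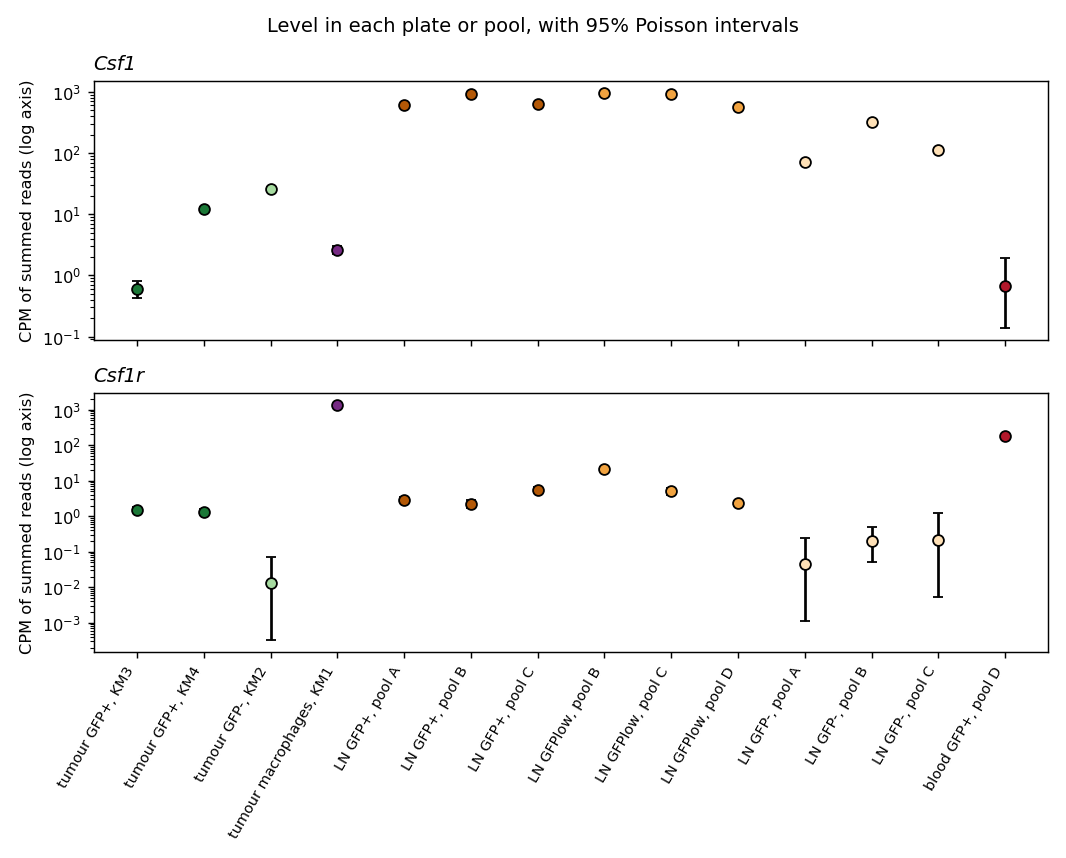
Csf1 and Csf1r in each plate or pool with at least 5 cells, as CPM of summed reads on a log axis with exact 95% Poisson intervals, coloured by sort gate. Csf1 lies between 555 and 947 CPM in the LN GFP+ and GFPlow pools and between 70.4 and 327.2 CPM in the LN GFP- pools, and Csf1r is far higher in macrophages (1384 CPM) than in any endothelial plate or pool.

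Nearly all GFP+ and GFPlow endothelial cells of the lymph node had Csf1 reads, but a minority of GFP- cells did. It was read in 95 of 98 LN GFP+ cells (96.9%, exact Clopper-Pearson 91.3 to 99.4%), 73 of 79 LN GFPlow cells (92.4%, 84.2 to 97.2%) and 28 of 74 LN GFP- cells (37.8%, 26.8 to 49.9%). With cells thinned to 100000 reads the shares were 95.8%, 89.7% and 35.2%, so the gap was present at equal depth. Per cell, Csf1 ran from 0 to 2952 CPM with a median of 601 CPM in LN GFP+ cells, from 0 to 2251 CPM with a median of 553 CPM in GFPlow cells, and from 0 to 1621 CPM with a median of 0 in GFP- cells. Single GFP- cells thus reached the range of the other 2 gates.

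**Figure D2:**
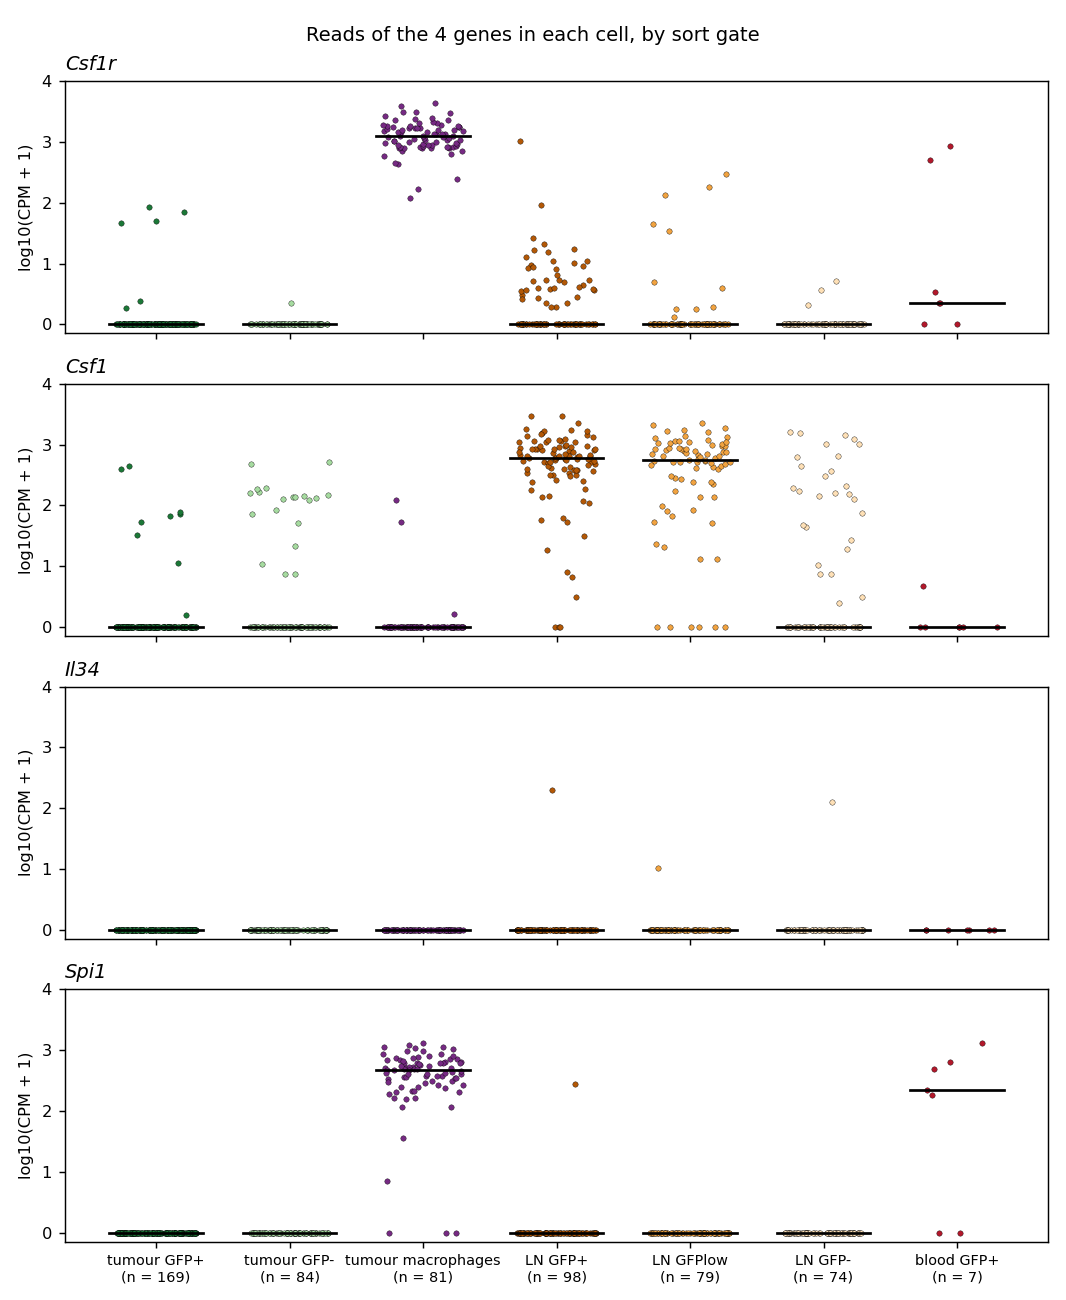
Reads of Csf1r, Csf1, Il34 and Spi1 in every cell that passed the filter, as log10(CPM + 1), with 1 point per cell and a bar at the median of each gate. Csf1 fills the LN GFP+ and GFPlow gates (medians 601 and 553 CPM), Csf1r and Spi1 fill the macrophage gate (medians 1232 and 473 CPM), and Il34 is at 0 in all but 3 cells.

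Between LN GFP+ and LN GFP- cells, Csf1 had a log2 ratio (of CPM plus 1) of 1.92, where pools A, B and C gave 3.10, 1.51 and 2.48, and 2.98 without pool B. Both members measured in this pair, Csf1 and Csf1r, were at least 2-fold higher, beside 20.1% of all 11140 measured genes, while 19.2% were at least 2-fold lower. To count as measured, a gene needed 1 CPM or more and a read in 5% or more of the cells of 1 gate. For GFPlow over GFP- cells of pools B and C, the Csf1 ratio was 1.69, with 1.53 and 3.03 by pool. Csf1 and Csf1r were again both higher, beside 25.3% of 10613 genes (30.5% were lower). The 2 comparisons share the GFP- cells of those pools. Between GFPlow and GFP+ cells Csf1 was within 2-fold, at a ratio of 0.26 in pools B and C and of -0.07 over all cells of both gates, so the direction turned with the pools used.

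In the GFP- gate Csf1 was higher in cells with reads of Prox1, the transcription factor gene that defines lymphatic endothelium. Among LN GFP- cells, Csf1 was at 359.6 CPM (351.8 to 367.5) in the 27 cells with a Prox1 read, of which 19 had Csf1 reads, and at 28.3 CPM (26.3 to 30.5) in the 47 cells without, of which 9 did. The log2 ratio was 3.62. A single cell gave 66.4% of the Csf1 reads of the cells without Prox1. Without the highest cell of each class, Csf1 was at 276.8 CPM in cells with Prox1 and 9.63 CPM in cells without, a ratio of 4.71. The cells with Prox1 were also deeper, with median reads of 839804 against 503277. In the GFP+ gate the split made little difference: Csf1 was at 710 CPM in 78 cells with Prox1 and at 676 CPM in 20 cells without. GFPlow cells were alike, at 662 CPM in 59 cells with Prox1 and 689 CPM in 20 without. Among cells with a Prox1 read alone, the Csf1 ratio was 0.98 for LN GFP+ over GFP- cells and 0.79 for GFPlow over GFP- cells, which is within 2-fold. Both ratios take the pools together and were not split by pool. Over all LN GFP- cells, Csf1 was at 70.4, 327.2 and 111.3 CPM in pools A, B and C.

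A second split, chosen after the data had been seen, used Madcam1, an adhesion molecule gene that in lymph nodes marks the floor endothelium of the subcapsular sinus and high endothelial venules. In LN GFP- cells, Csf1 was at 849 CPM in the 6 cells with reads of both Prox1 and Madcam1 and at 209.4 CPM in the 21 with Prox1 alone. It was at 669.6 CPM in the 2 cells with Madcam1 alone and at 7.11 CPM in the 45 cells with neither. Among GFP- cells with a Madcam1 read, the ratio of cells with Prox1 over cells without was thus 0.34, which is within 2-fold and rests on 6 and 2 cells. In the GFP+ gate Csf1 was at 729 CPM in 73 cells with both genes, 416 CPM in 5 with Prox1 alone, 578 CPM in 17 with Madcam1 alone and 1899 CPM in 3 with neither, so the last class rests on very few cells. Sinus floor markers moved with the gates as a list: Madcam1 and Itga2b together were at 2197 CPM in LN GFP+ cells (1839 to 2514 by pool), 936 CPM in GFPlow cells (851 to 1236) and 117.1 CPM in GFP- cells (0.311 to 271.5). The 6 blood endothelial markers moved the other way, with a summed level of 2259 CPM in LN GFP+ cells (1860 to 2463 by pool), 2109 CPM in GFPlow cells (1791 to 2232) and 7915 CPM in GFP- cells (6605 to 8198). Nearly all of the GFP+ sum was Plvap, a gene of vessel diaphragms, at 2248 CPM in GFP+ cells and 4412 CPM in GFP- cells. The other 5 were near or at 0 in GFP+ cells: Flt1 was at 8.90 CPM in GFP+ cells and 625.4 CPM in GFP- cells, Cd34 at 0.641 and 1098 CPM, Emcn at 1.30 and 529 CPM, and Ly6c1 and Sox17 at 0 in GFP+ cells. The 7 lymphatic markers summed to 1240 CPM in GFP+, 4268 CPM in GFPlow and 5497 CPM in GFP- cells. Ccl21a, Mmrn1 and Reln were lower in GFP+ than in GFP- cells, and Prox1, Lyve1, Pdpn and Flt4 higher. Ccl21a alone was at 0.0210 and 4662 CPM. Sinus ceiling markers, Ackr4 and Cav1, summed to 61.5, 224.8 and 1623 CPM in GFP+, GFPlow and GFP- cells. Those of high endothelial venules summed to 2675, 1803 and 3113 CPM. Glycam1 made up nearly all of the GFP+ sum, at 2674 CPM in GFP+ cells and 2859 CPM in GFP- cells. The other genes of that list were lower in GFP+ than in GFP- cells, with Chst4 at 0.0105 and 118.8 CPM and Fut7 at 1.27 and 134.9 CPM. Fibroblast and pericyte markers, of which 4 of 7 had reads in each LN gate, summed to 302.8 CPM in GFP+ cells (291.8 to 322.9 by pool), 162.3 CPM in GFPlow cells (94.1 to 327.3) and 29.6 CPM in GFP- cells (26.8 to 47.7). Most of that was Rgs5 in GFP+ and GFPlow cells, while Pdgfra and Pdgfrb were at 0 in all 3 gates. The part of cell makeup in the Csf1 difference was not tested beyond these splits.

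**Figure D3:**
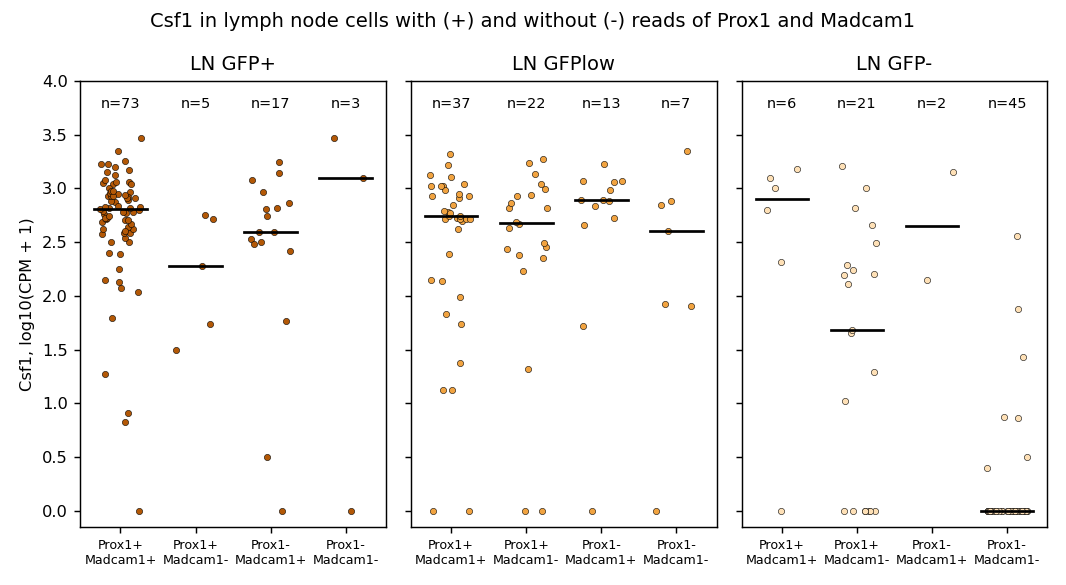
Csf1 in each lymph node cell as log10(CPM + 1), by gate and by whether the cell had reads (+) or none (-) of Prox1 and Madcam1, with the number of cells above and a bar at the median. In the GFP- gate most of the 45 cells with neither gene sit at 0, whereas the 6 with both have a median of 823 CPM, inside the range of the GFP+ and GFPlow cells.

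In the tumour, Csf1 was sparse and lower in GFP+ than in GFP- endothelial cells. It was read in 9 tumour GFP+ cells (5.33%, 2.46 to 9.87%) and in 20 tumour GFP- cells (23.8%, 15.2 to 34.3%). The log2 ratio was -1.83, and Csf1, the only member measured in this pair, was among 8.25% of 10971 genes at least 2-fold lower, while 6.95% were at least 2-fold higher. Both GFP+ plates lay below the GFP- plate, but far apart: 0.598 CPM with reads in 1 cell on KM3 and 12.3 CPM with reads in 8 cells on KM4, against 26.2 CPM on KM2. A single GFP+ cell gave 53.4% of the Csf1 reads of its gate, and the ratio without the highest cell of each gate was -2.50. With 1 GFP+ plate left out it was -1.04 without KM3 and -4.09 without KM4.

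Set against macrophages, Csf1 was higher in both endothelial gates of the tumour, although the GFP+ value rests on 1 plate. The log2 ratio was 1.09 for GFP+ cells and turned to -1.17 without plate KM4, against 1.89 without KM3. For GFP- cells it was 2.92, and 3.61 without the highest cell of each gate. Of the 3 members measured in each of these pairs, Csf1 was the one that was higher. Genes at least 2-fold higher made up 24.2% of 11551 for GFP+ cells and 27.5% of 11791 for GFP- cells. Csf1 was read in 3 of 81 macrophages, so the ligand was rare in the cells that held the receptor.

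Il34 (chromosome 8, 110741829 to 110805924, minus strand), the second ligand, was close to absent from the libraries. It had 0 reads in tumour GFP+ cells, tumour GFP- cells, macrophages and blood cells, which allows shares of cells with a read of up to 1.78%, 3.57%, 3.70% and 42.9%, taken as 3 cells of those in the gate. In the lymph node 1 cell of each gate held it, at 195.02 CPM in the GFP+ cell, 9.48 CPM in the GFPlow cell (3 reads) and 127.8 CPM in the GFP- cell. All 3 of these cells also had reads of Prox1 and Csf1 and none of Csf1r. Per kilobase of exon, Il34 was at 0.274, 0.0161 and 1.10 CPM in the LN GFP+, GFPlow and GFP- gates, where Csf1 was at 133.2, 126.5 and 35.003 CPM per kilobase.

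Csf1r (chromosome 18, 61100598 to 61132149, plus strand) was a macrophage transcript. Endothelial gates held little of it: 5.40 CPM (4.95 to 5.89) in LN GFPlow cells, 3.48 CPM (3.12 to 3.88) in LN GFP+ cells, 1.44 CPM (1.26 to 1.65) in tumour GFP+ cells, 0.126 CPM (0.0462 to 0.274) in LN GFP- cells and 0.0129 CPM from 1 read in tumour GFP- cells. Tumour macrophages held 1384 CPM (1376 to 1393) with reads in all 81 cells, from 118.7 to 4406 CPM per cell with a median of 1232. The blood cells came second to macrophages at 167.4 CPM (156.2 to 179.2). Of the neighbours in this order, LN GFPlow and LN GFP+ cells did not differ beyond the spread of their pools, at 9.48 ± 10.1 and 3.56 ± 1.72 CPM (SD, n = 3 pools each). The 2 tumour GFP+ plates held 1.55 and 1.35 CPM and lay below the lowest LN GFP+ pool, at 2.23 CPM, although tumour and lymph node plates were counted in separate tables.

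In tumour GFP+ cells Csf1r reads came from few cells. It was read in 6 cells (3.55%, 1.31 to 7.57%), 4 on KM3 and 2 on KM4, against 1 tumour GFP- cell (1.19%, 0.0301 to 6.46%). In the GFP+ cells these were 16, 1, 95 and 2 reads on KM3 and 67 and 39 reads on KM4, so 4 cells had at least 10 reads, against 0 of the GFP- cells. Without the highest cell the GFP+ level was 0.828 CPM. All 6 GFP+ cells had reads of Flt1, a VEGF receptor gene of blood endothelium, 1 had Csf1 reads, and none had reads of Spi1, Ptprc (CD45), Tyrobp or C1qb. The macrophage list of 10 genes summed to 4.47 CPM in tumour GFP+ cells (2.51 and 6.56 by plate), 15.7 CPM in GFP- cells and 28991 CPM in macrophages.

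Against macrophages, Csf1r had a log2 ratio of -9.15 in tumour GFP+ cells and -10.42 in tumour GFP- cells, and Spi1 was lower as well. The 2 members stand beside 19.7% of genes at least 2-fold lower in GFP+ cells and 19.3% in GFP- cells. Both comparisons share the macrophages. CD45 was part of the gates, so lower values of leukocyte genes in the endothelial cells follow the sort.

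Lymph node GFP+ cells held Csf1r at low counts in a larger share of cells. It was read in 39 of 98 LN GFP+ cells (39.8%, 30.04 to 50.2%), 11 of 79 LN GFPlow cells (13.9%, 7.16 to 23.5%) and 3 of 74 LN GFP- cells (4.05%, 0.844 to 11.4%). Among GFP+ cells with a read the median was 4.34 CPM, and 10 cells had at least 10 reads, against 5 GFPlow and 0 GFP- cells. Thinned to 100000 reads, the shares were 17.9%, 8.97% and 1.41%, so the order of the gates stayed while the GFP+ share was lower at equal depth. Shares were 51.2%, 24.2% and 40.9% in pools A, B and C of the GFP+ gate, against 2.50%, 3.85% and 12.5% in the same pools of the GFP- gate.

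The log2 ratio of Csf1r was 1.99 for LN GFP+ over LN GFP- cells, where pools A, B and C gave 1.92, 1.44 and 2.42, and 1.72 to 2.21 with a pool left out. It rests on 39 cells with a read against 3 cells with 6 reads and was 0.73 with a pseudocount of 5 CPM. For GFPlow over GFP- cells of pools B and C the ratio was 3.50, with 4.20 and 2.33 by pool, and 1.92 without the highest cell of each gate. Between GFPlow and GFP+ cells of pools B and C the ratio of 1.46 put Csf1r among 20.5% of 10470 genes that were at least 2-fold higher, while 25.4% were at least 2-fold lower. A single GFPlow cell of pool B with 53.9% of the gate's Csf1r reads carried that value. The ratio was 2.77 in pool B and -0.09 in pool C, 0.12 without the highest cell of each gate, and 0.51 over all cells of both gates, which is within 2-fold. By share of cells the order of the 2 gates was the reverse, with 24.1% of GFPlow and 30.9% of GFP+ cells in these pools.

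Receptor and ligand were read in the same lymph node cells. Of the 39 LN GFP+ cells with a Csf1r read, 38 had Csf1, as did 57 of the 59 without, so Csf1 did not separate the cells with the receptor. In GFPlow cells 9 of 11 with Csf1r had Csf1, beside 73 of all 79 cells of that gate. In GFP- cells 3 of 3 did, beside 28 of all 74. Endothelial genes were present in the 39 GFP+ cells: 30 had Prox1, 36 had Madcam1 and 31 had Cdh5. Macrophage genes were scarce in them, with C1qa in 1 cell, C1qb in 2, Lyz2 in 3 and Tyrobp in 1, and Spi1, Ptprc, Itgam and Adgre1 in 0. The highest LN GFP+ cell by CPM was a shallow one of pool C, with 68 Csf1r reads among 65814, Prox1 at 3024 CPM and Spi1 at 0. With each cell given equal weight, the GFP+ gate averaged 13.9 CPM, above the 3.48 CPM of summed reads. The macrophage list summed to 75.4 CPM in LN GFP+ cells (1.69 to 155.1 by pool), 24.8 CPM in GFPlow cells (0.672 to 30.7) and 42.3 CPM in GFP- cells (0 to 76.1), with 9, 7 and 7 of its 10 genes read. Most of the GFP+ sum was Lyz2, at 63.8 CPM, while C1qa, C1qb and Adgre1 were near 0. Lyz2 was read in 9 LN GFP+ cells, and 1 of them, a pool A cell without a Csf1r read, held 4937 Lyz2 reads. Mertk was the largest part of the GFPlow and GFP- sums, at 15.9 and 36.6 CPM. The part of reads of macrophage genes in the Csf1r levels was not tested.

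Spi1 (chromosome 2, 91082390 to 91115756, plus strand) had 0 reads in tumour GFP+ and tumour GFP- cells, against 511 CPM (506 to 516) in macrophages, where 78 of 81 cells had reads and the median was 473 CPM per cell. With a floor of 3 reads per gate it was at least 25959-fold lower in tumour GFP+ cells and at least 13182-fold lower in tumour GFP- cells. LN GFPlow and LN GFP- cells also had 0 reads, while the blood cells held 404 CPM (386 to 422), with reads in 5 of 7. By the same limit of 3 cells, shares of cells of up to 1.78%, 3.57%, 3.80% and 4.05% are allowed in tumour GFP+, tumour GFP-, LN GFPlow and LN GFP- cells.

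In the LN GFP+ gate 1 cell of pool A had 400 Spi1 reads and the other 97 had 0. That cell held no Csf1r read, 1132 Csf1 reads, 396 Prox1 reads and 1248 Madcam1 reads, together with 4937 reads of Lyz2, a lysozyme gene of myeloid cells, and 260 of Cd68, but none of Ptprc or Tyrobp. It was the only cell of the tumour and LN endothelial gates in which Spi1 was read, and its CPM of 276.1 fell inside the range of macrophages. Whether its well held more than 1 cell was not tested.

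**Figure D4:**
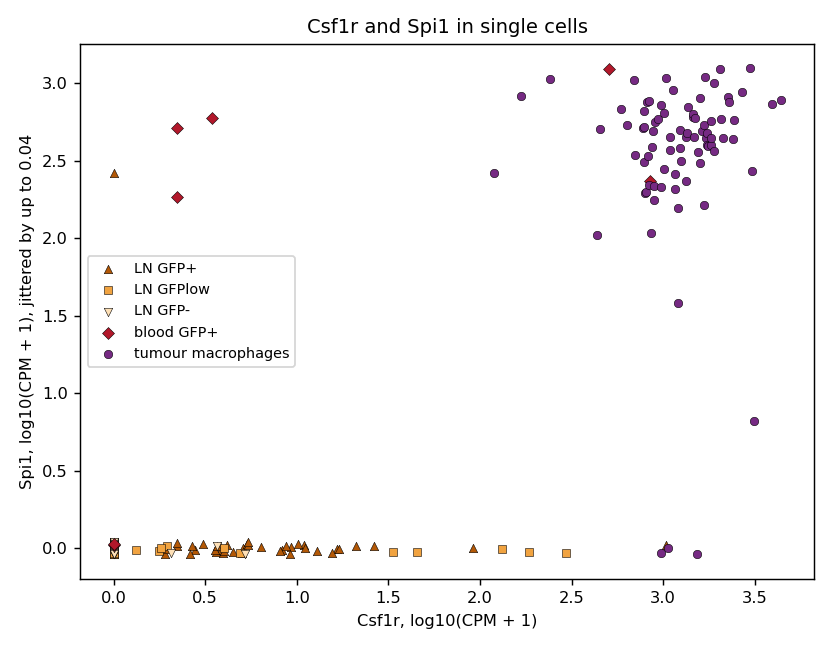
Csf1r against Spi1 in single cells of the lymph node gates, blood and tumour macrophages, each as log10(CPM + 1), with Spi1 jittered by up to 0.04. Macrophages lie high on both axes (medians 1232 and 473 CPM), lymph node cells with Csf1r reads lie at 0 on the Spi1 axis, and of the 7 blood cells 2 are high on both axes, 3 have Spi1 with Csf1r at 1.21 to 2.43 CPM and 2 are at 0 on both.

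The 7 blood cells divided by their B cell gene. Csf1r was at 843 and 508 CPM in the 2 cells without Cd79a, and at 2.43, 0, 1.22, 1.21 and 0 CPM in the 5 cells with it. Spi1 was at 221.8 and 1286 CPM in the first 2 and at 649, 0, 182.5, 481 and 0 CPM in the others, so it was read on both sides. Csf1 was read in 1 of the 7, with 3 reads. With the 2 cells alone, the blood level of Csf1r was 629 CPM and that of Spi1 902 CPM.

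Beyond the 4 genes, 56 other genes of the pathway were listed from general knowledge, with earlier results of these data known. Between LN GFP+ and GFP- cells 33 of the 56 were measured, with 12 at least 2-fold higher and 7 lower, beside 20.1% of all genes higher and 19.2% lower, and a median log2 ratio of 0.13, against 0.04 over all measured genes. For GFPlow over GFP- cells 7 were higher and 7 lower of 33 measured, beside 25.3% and 30.5% of all genes, with a median of -0.06 against -0.05. For GFPlow over GFP+ cells 5 were higher and 7 lower of 33, beside 20.5% and 25.4%, with a median of 0.07 against 0.00. In tumour GFP+ over GFP- cells 26 were measured, with 2 higher (Sos1 and Pik3r1) and 1 lower (Sdc1), beside 6.95% and 8.25%, and a median of 0.11 against -0.12. Against macrophages, 28 of 44 were lower in tumour GFP+ cells and 9 higher, beside 19.7% and 24.2% of all genes, with a median of -1.89 against 0.08. In tumour GFP- cells 30 of 45 were lower and 9 higher, beside 19.3% and 27.5%, with a median of -2.04 against 0.21.

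Among transcription factors, a close relative of Spi1 was read where Spi1 was not. Spib, which encodes the ETS factor SPI-B known from B cells and plasmacytoid dendritic cells, was at 250.1 CPM in LN GFP+ cells, 247.7 CPM in GFPlow cells and 23.7 CPM in GFP- cells, and at 0 in all tumour gates. It was read in 64.3%, 53.2% and 4.05% of cells of the 3 LN gates. The log2 ratio for GFP+ over GFP- cells was 3.34, at 7.88, 2.35 and 7.91 by pool. Of the B cell markers, Cd79a was at 0 in all 3 LN gates and 758 CPM in the blood cells, where Spib was at 407 CPM. Cd79b was at 9.74 CPM in LN GFP+ cells, 28.9 CPM in GFPlow cells, 3.19 CPM in GFP- cells and 1061 CPM in the blood cells. Irf8, a partner of PU.1 in myeloid and B cells, was at 226.6, 283.8 and 146.9 CPM in LN GFP+, GFPlow and GFP- cells. Irf4, which acts in B and plasma cells, was at 237.6 CPM in blood cells and at most 0.574 CPM elsewhere.

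ETS factors of endothelium were measured in all gate pairs and 6 of 6 were within 2-fold between tumour GFP+ and GFP- cells, as most genes were (6.95% were higher and 8.25% lower). Between LN GFP+ and GFP- cells 5 of 6 were within 2-fold and Elk3 was lower, at 73.2 CPM in GFP+ cells and 258.2 CPM in GFP- cells, a log2 ratio of -1.81. Ets1 was at 516 CPM in tumour GFP+ cells, 367.8 CPM in tumour GFP- cells and 12.2 CPM in macrophages, and Elk3 at 398, 462 and 58.96 CPM. Fli1 was at 199.6 CPM in tumour GFP+ cells and 244.004 CPM in tumour GFP- cells. Of 7 known PU.1 targets, Cd68 reached 4.28 CPM and Cybb, Adgre1 and Itgam at most 0.0591 CPM in the endothelial gates. In macrophages Cd68, Cybb, Adgre1 and Itgam were at 946, 419, 378.4 and 373.8 CPM. Tlr4, the receptor for bacterial lipopolysaccharide, was at 171.6 CPM in LN GFP+ cells with reads in 42.9% of them, above the 36.1 CPM of macrophages. GFPlow cells were above macrophages as well, at 68.1 CPM. LN GFP-, tumour GFP- and tumour GFP+ cells were below them, at 32.3, 30.5 and 17.7 CPM. Tlr4 was the 1 target measured between LN GFP+ and GFP- cells, with a log2 ratio of 2.37.

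Components of CSF1R signalling divided into leukocyte and shared genes. Tyrobp, the adaptor DAP12 that works beside CSF1R in macrophages, was at 0 in tumour GFP+ cells, 0.0258 CPM in tumour GFP- cells and 1764 CPM in macrophages. Ptpn6, the phosphatase SHP-1, was at 17.2 CPM in LN GFP+ cells and 0 in LN GFP- cells, and at 0 in tumour GFP+ cells and 381.03 CPM in macrophages. Lyn, a Src-family kinase, and Inpp5d, the phosphatase SHIP1, were read in every endothelial gate, with Lyn at 41.5 CPM in LN GFP+ cells and 111.5 CPM in LN GFP- cells and Inpp5d at 91.4 and 39.7 CPM.

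Genes for release of CSF1 from the membrane were read in every lymph node gate, and whether in the same cells as Csf1 was not tested. Adam17, the protease TACE, was at 81.1 CPM in LN GFP+ cells and 28.4 CPM in LN GFP- cells, a log2 ratio of 1.48 that was 0.73, 2.55 and 6.15 by pool. Adam10, a related protease, was within 2-fold between the LN gates in summed reads, at 173.4 CPM in GFP+ cells, 138.98 CPM in GFPlow cells and 194.3 CPM in GFP- cells, and it was at 475 CPM in tumour GFP+ cells and 375.7 CPM in tumour GFP- cells. Rhbdf2, the iRhom2 gene whose product brings ADAM17 to the cell surface, was at 24.3 CPM in LN GFP+ cells and 9.96 CPM in LN GFP- cells. Of the other receptors described for IL-34, Ptprz1 was at most 0.0105 CPM in any gate. Sdc1, the syndecan-1 gene, was at 247.3 CPM in LN GFP+ cells, 80.2 CPM in GFPlow cells and 36.05 CPM in GFP- cells.

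Kit, a receptor tyrosine kinase related to Csf1r, and its ligand Kitl ran against Csf1 in the lymph node. Kitl was at 20.8 CPM in LN GFP+ cells and 148.8 CPM in LN GFP- cells, a log2 ratio of -2.78 at -1.48, -3.30 and -6.76 by pool. Kit was at 0.631 CPM in LN GFP+ cells and 70.6 CPM in LN GFP- cells. In the tumour, Kit was at 212.6 CPM in GFP+ cells and 210.9 CPM in GFP- cells, against 0.0249 CPM in macrophages. Other growth factors for blood cells were few: Csf2 and Il3 had 0 reads in every gate, Csf3 was at most 1.56 CPM, and Il7 was at 63.6, 48.3 and 54.4 CPM in LN GFP+, GFPlow and GFP- cells. The shared beta chain genes of the GM-CSF and IL-3 receptors, Csf2rb and Csf2rb2, were at 286.2 and 775 CPM in LN GFP+ cells and 301.9 and 465 CPM in LN GFP- cells. These genes are near copies, so reads between them are uncertain. Csf2ra, the GM-CSF receptor alpha chain, was at 3.77 CPM in LN GFP+ cells and 260.7 CPM in macrophages, and Csf3r at 107.7 CPM in macrophages.

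**Figure D5:**
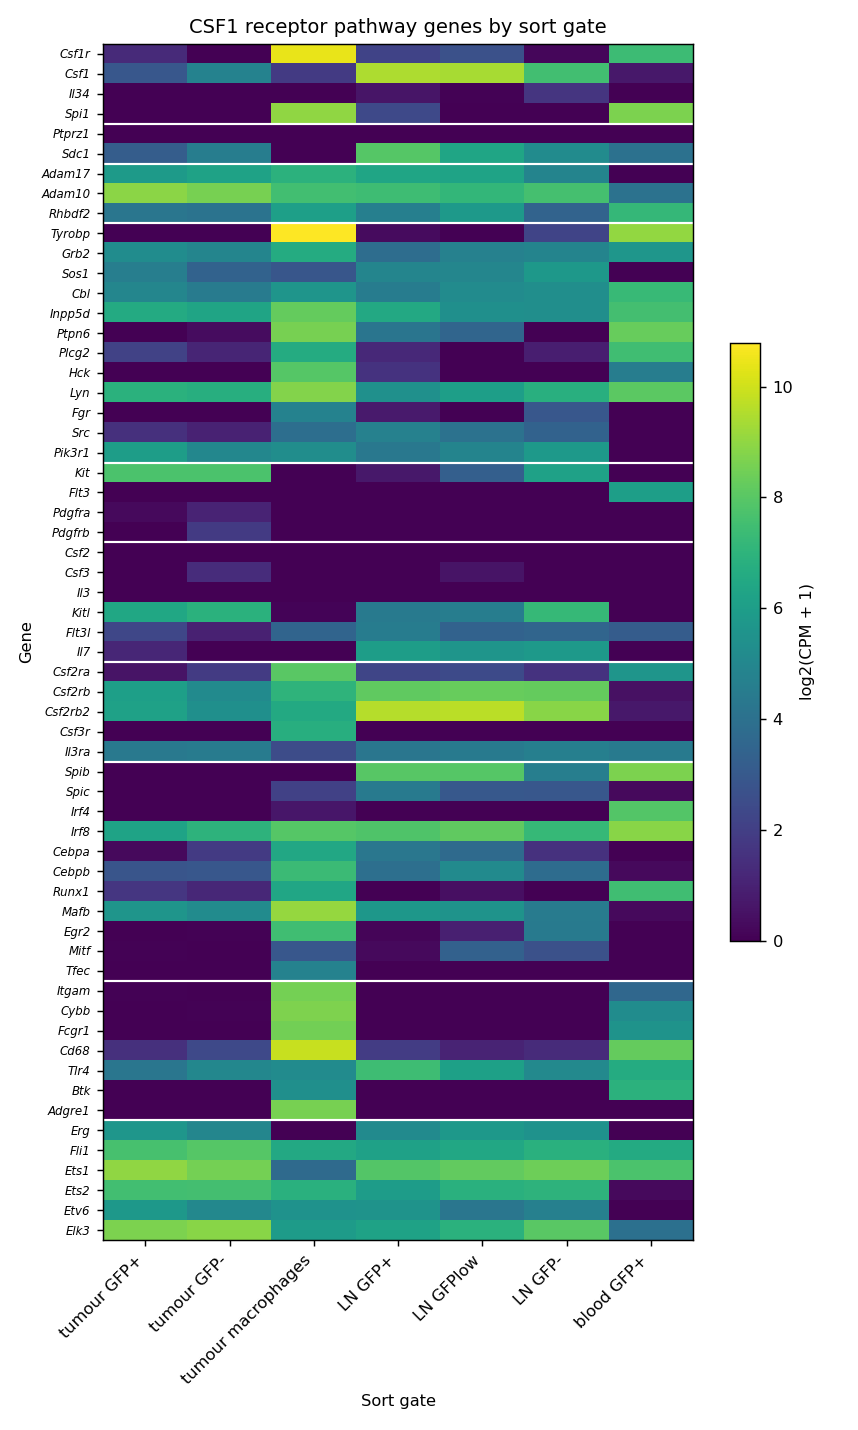
Levels of the 4 genes and the 56 other pathway genes in the 7 sort gates, as log2(CPM + 1) of summed reads, with white lines between gene lists. The macrophage column is bright for Tyrobp (1764 CPM), Csf1r and Spi1, and the LN GFP+ and GFPlow columns are bright for Csf1, Csf2rb2 and Spib (250.1 and 247.7 CPM).

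Genes with the most similar pattern were ranked by Pearson correlation of log2(CPM + 1) over 14 gate-by-plate units, which share runs and tables. For Csf1 these were Slc39a4 (0.979), Il4i1 (0.972), Sh3gl3 (0.964), Atp6v0e2 (0.962) and Lyve1 (0.959), the last a hyaluronan receptor gene of lymphatic endothelium. For Csf1r they were Cyp4f18, Lair1, Fcgr1, Fam105a and Wfdc17, all at 0.915 to 0.916, and for Spi1 they were Bin2 (1.000), Vav1 (0.997), Pag1 (0.991), Arhgap9 (0.977) and Cd300a (0.975). The macrophage and blood units set the high end of both. Il34 rests on single cells, and its nearest genes, Gucy1a3, Osr1, Lancl3, Mpped2 and Edil3, reached 0.844 to 0.845. These values describe the units and carry no test.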

How the data were processed

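Per the labels' protocols, single cells were sorted into wells, amplified with a modified SMART-seq2 protocol and made into Nextera XT libraries. Both deposited tables give raw counts of reads for each gene. The submitters' processing notes name the build mm10 and the tools STAR 2.4.1b, Subread 1.4.6-p2 and FastQC 0.11.4, with no role given. Both tables list 51826 rows, and 92 rows that repeat a symbol were summed into it. Wells were grouped by gate and tissue. Cells with under 50000 reads in genes, under 1000 genes or over 25% mitochondrial reads were left out. No doublet caller was run, since cells were sorted singly.

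Levels are CPM of the summed counts of a gate, with 95% Poisson intervals computed exactly, and detection shares have 95% Clopper-Pearson intervals, or, where no cell had a read, a limit of 3 cells of those in the gate. Both cover counting error only, as PCR reads are not independent molecules. Ratios are log2 of CPM plus 1, and a floor is 3 reads over a gate. With 1 sample per gate no test was run. Gene positions and exon lengths are from GENCODE vM21 (GRCm38). Python 3.11.15, numpy 2.4.6, pandas 2.3.3, scipy 1.17.1 and edgeR 4.0.16 in R 4.3.3 (for scaling factors) were used, and the scripts were tested on simulated data.

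The 4 genes, the pathway lists and the splits were chosen with earlier results of these data known. Named beyond the 4 genes were up to 4 genes per pathway list by the highest CPM in any gate, and the 5 most similar genes per member among genes with at least 20 CPM in 1 unit. Some genes of these lists are not reported here. Sos1, Pik3r1, Tlr4 and the marker genes of the cell checks were named after their values were seen. Alternatives were a stricter cell filter (100000 reads, 2000 genes, 10% mitochondrial reads), cells thinned to 100000 reads, per-cell means, TMM factors, a pseudocount of 5 CPM, other gene filters, and leaving out plates, pools or the highest cell. Splits by Madcam1, ratios in cells with Prox1 alone GFPlow ratios over all pools, the Prox1 split without the highest cells and blood without Cd79a cells were added after the data had been seen.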

Additional observations from a re-analysis of the deposited data

Results flagged for a closer look

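Csf1 differed in direction between tissues under the same contrast of GFP+ over GFP- endothelial cells. The log2 ratio was -4.09 on KM3 and -1.04 on KM4 against the tumour GFP- plate, and in the lymph node it was 3.10 in pool A, 1.51 in pool B and 2.48 in pool C. Both tumour values share the GFP- plate, and the difference between tissues was not tested. Tumour cells were nearly without Prox1 (1.12 CPM in GFP+ and 0 in GFP- cells), whereas the lymph node gates held 310.99 CPM in GFP+ and 206.01 CPM in GFP- cells.

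Among the 7 blood cells, 1 stood apart from the others for Csf1, at 3.67 CPM from 3 reads, while the other 6 were at 0. Its gap to the nearest cell, as a share of the whole range, was above Dixon's 95% critical value, which chance passes in about 1 in 20 groups of normally distributed values. Where 6 of 7 cells are at 0, any single read passes it.

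Wells that did not pass the cell filter were not used in any comparison. Among those sorted with a cell, 9 had Csf1r reads, 18 had Csf1 reads and 1 had Spi1 reads, against 0 in the 2 wells left without a cell. Of the 18 wells with Csf1, 4 were LN GFP+, 9 LN GFPlow and 2 LN GFP- wells, and the Spi1 well was from the macrophage gate.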

How the results depend on the processing

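No paired analysis was possible because the labels name no animal and the results come from no test; values within each pool stand beside the pooled ones. Over all alternatives, log2 ratios of at least 2-fold changed sign in 3 cases and fell within 2-fold in 8, and the other ratios kept their side of 2-fold. Under a pseudocount of 5 CPM, Csf1 was at 0.62 for tumour GFP+ over macrophages, and Csf1r at 0.73 for LN GFP+ over GFP- and 0.98 for LN GFPlow over GFP+. Without KM4 Csf1 was at -1.17 for tumour GFP+ over macrophages. For LN GFPlow over GFP+, Csf1r was at -0.092 without pool B, -0.34 by per-cell means, 0.12 without the highest cells and 0.51 over all pools. With Prox1 cells alone, Csf1 was at 0.98 (GFP+ over GFP-) and 0.79 (GFPlow over GFP-), and the Prox1 split of LN GFP- cells was at 0.34 among cells with Madcam1. The cause was not tested. Numbers of genes at least 2-fold apart moved with the filter on low genes, as fewer or more genes were counted: for tumour GFP+ over GFP- from 1668 to 1042 (5 CPM and 10% of cells) and 3202 (no filter), for LN GFP+ over GFP- from 4380 to 2883 (5 CPM and 10% of cells) and 6690 (no filter), and for LN GFPlow over GFP+ from 4802 to 3061 (5 CPM and 10% of cells). They also moved to 814 for tumour GFP+ over GFP- with a pseudocount of 5 CPM, which shrinks ratios of low genes, and to 2935 for LN GFPlow over GFP+ over all pools. Csf1r was read in 39.8% of LN GFP+ cells, and in 17.9% with cells thinned to equal depth. Among cells with a Csf1r read, 10 of 39 LN GFP+, 5 of 11 LN GFPlow and 0 of 3 LN GFP- cells had at least 10 reads. In the tumour these were 4 of 6 GFP+ cells and 0 of 1 GFP- cell. The part of depth in the Csf1r values was not tested beyond the thinning.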
